A study of Caenorhabditis elegans with 2 samples.

Results

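The regions described here are 1077 candidate binding regions of the nuclear hormone receptor NHR-237 that lie at promoters of protein-coding genes on the X chromosome of Caenorhabditis elegans. They were taken from the 30000 regions that the authors listed for the pooled replicates in genome build ce11, of which 6147 lay on X, so that they made up 3.59% of the list and 17.5% of its X regions. A region was kept when its summit fell in the window around the annotated start of a protein-coding gene that reaches 1000 bp upstream and 100 bp downstream. The choice used position alone and no signal.

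The study profiled NHR-237 by chromatin immunoprecipitation and sequencing (ChIP-seq) in a single group with 2 biological replicates. The animals were whole L3 larvae of both sexes from strain OP228, which carries unc-119(ed3) III and the transgene wgIs228, an insertion targeting nhr-237. The labels describe the profiled protein as eGFP-nhr-237. What drives the transgene, and in which cells it is expressed, was not stated in the labels, and the animals are whole, so signal from different tissues is mixed. There was no second condition, so regions were compared with regions, and replicates with each other, as descriptions with no test between groups. The list was made to feed a reproducibility analysis and holds peaks and background together, so a region in it is a candidate and not a called binding site. Signal means the peak value that the authors gave each region, on a scale that is not stated, and the number of reads behind it is unknown.

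Nuclear hormone receptors are transcription factors, many of them controlled by small lipophilic ligands, that often recognise the half-site AGGTCA or variants of it. Nematodes have a greatly expanded family, and for most members no ligand or target is known. The X chromosome of C. elegans is present in a pair in hermaphrodites and as a single copy in males. In hermaphrodites a condensin-like dosage compensation complex is loaded at recruitment sites on X and lowers transcription along both copies. Those recruitment sites share a GC-rich sequence named MEX. Many worm genes have their messenger RNA trimmed and capped with a spliced leader, so an annotated gene start is often the splice site and transcription can begin further upstream.

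The sequences below are those of the 6 candidates whose region ranked in the top 1000 of both replicates, shown because they hold the best replicated signal at these promoters. Each is the plus strand of WBcel235, which is ce11, from 100 bases before to 100 bases after the pooled summit, read from the RefSeq assembly. Capitals mark matches on either strand. They mark the nuclear receptor half-site AGGTCA and its variant AGTTCA, and the simple repeats GAGAGA and, separately, ACACAC. They also mark pieces of MEX that overlap each other, which are CGCGCA and its neighbour CCCTGC, the longer piece GCGCAGGG, and a form with 1 free base (N), CGCGNAGGG.
nspc-17, chrX:14525827-14526027: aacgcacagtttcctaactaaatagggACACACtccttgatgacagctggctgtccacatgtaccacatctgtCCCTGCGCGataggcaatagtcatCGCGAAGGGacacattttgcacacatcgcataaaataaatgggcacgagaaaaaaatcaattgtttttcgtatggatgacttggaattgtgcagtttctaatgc
ins-39, chrX:1344971-1345171: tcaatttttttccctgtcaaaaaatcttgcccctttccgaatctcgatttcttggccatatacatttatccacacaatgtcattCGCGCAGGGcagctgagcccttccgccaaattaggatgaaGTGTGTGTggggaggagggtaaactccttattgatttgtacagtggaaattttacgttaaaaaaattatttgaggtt
epn-1, chrX:14818728-14818928: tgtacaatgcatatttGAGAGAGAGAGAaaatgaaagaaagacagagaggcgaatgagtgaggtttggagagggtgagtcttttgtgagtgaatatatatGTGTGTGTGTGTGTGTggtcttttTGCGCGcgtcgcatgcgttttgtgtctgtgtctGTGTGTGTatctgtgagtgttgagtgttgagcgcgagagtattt
sec-3, chrX:3100608-3100808: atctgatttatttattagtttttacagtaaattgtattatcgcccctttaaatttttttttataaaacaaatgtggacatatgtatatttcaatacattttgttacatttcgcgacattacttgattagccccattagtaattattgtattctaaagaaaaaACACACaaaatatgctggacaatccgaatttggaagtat
dpy-3, chrX:2145808-2146008: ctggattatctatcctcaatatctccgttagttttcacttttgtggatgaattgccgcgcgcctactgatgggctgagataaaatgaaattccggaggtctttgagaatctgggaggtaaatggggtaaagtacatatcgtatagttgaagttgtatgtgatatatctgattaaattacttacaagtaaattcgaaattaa
tmem-184, chrX:14707131-14707331: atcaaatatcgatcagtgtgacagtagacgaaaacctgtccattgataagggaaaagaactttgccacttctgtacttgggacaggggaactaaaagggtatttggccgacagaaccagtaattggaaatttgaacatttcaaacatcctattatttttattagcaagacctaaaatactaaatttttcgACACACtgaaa

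At nspc-17 the capitals show CCCTGCGCG on the plus strand, which begins 27 bp before the summit, and CGCGAAGGG, which begins 3 bp before it. At ins-39 CGCGCAGGG begins 16 bp before the summit. Both summits therefore fell within 30 bp of the start of a GC-rich MEX-like block. The epn-1 window has no such block. It holds runs of alternating GT, which is ACACAC on the other strand, from the summit onwards, a run of GAGA, and 1 CGCGCA on the minus strand. No half-site of either kind was found in the 6 windows. For each kind the 95% exact interval of 0 in 6 windows reaches 45.9%, so this absence says little.

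Few of the X promoter candidates were on the authors' final list. Of the 1077, 3 coincided with a peak that passed the authors' irreproducible discovery rate (IDR) threshold, a cut-off set from how well ranked peaks agree between lists. That is 0.279% (95% exact Clopper-Pearson interval 0.0575 to 0.812%), against 0.454% of the other X candidates, 0.276% of autosomal protein-coding promoter candidates and 0.16% of all pooled candidates. The intervals given for shares cover counting over regions only, and neighbouring regions are not independent. The peaks were those of nspc-17, ins-39 and epn-1. The ce11 IDR list has 26 peaks on X, so the other 23 lay outside protein-coding promoter windows.

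nspc-17 (WBGene00008359, chrX:14524754-14525181, minus strand) belongs to the nspc genes, the group C of nematode-specific peptide families. Its candidate spanned chrX:14525752-14526101, in intergenic sequence with the summit 746 bp upstream of the start. Its signal was 122.3 in the pool, 85.5 in replicate 1 and 40.3 in replicate 2. In rank it stood at 7 in the pooled list, 3 in replicate 1 and 15 in replicate 2, so both replicates placed it among their highest regions.

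ins-39 (WBGene00017668, chrX:1343758-1344421, minus strand) encodes an insulin-like peptide, one of a large family of worm ligands related to insulin. Its candidate spanned chrX:1344896-1345245, intergenic, with the summit 650 bp upstream. The signal was 99.3 in the pool, 66.9 in replicate 1 and 35.7 in replicate 2. The ranks were 14 in the pool, 4 in replicate 1 and 17 in replicate 2.

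epn-1 (WBGene00001329, chrX:14815798-14818514, minus strand) encodes epsin, an adaptor of clathrin-mediated endocytosis. Its candidate spanned chrX:14818653-14819002, intergenic and 314 bp upstream, with the non-coding RNA genes T04C10.8 and T04C10.9 within 500 bp of the summit. The signal was 59.3 in the pool, 37.7 in replicate 1 and 22.4 in replicate 2. Replicate 2 placed it lower, at rank 92, than replicate 1, at rank 21. All 3 regions had a higher signal in replicate 1, and no 36-base word of any of them occurred elsewhere in the genome, so none is a copied sequence at that word length.

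**Figure D1:**
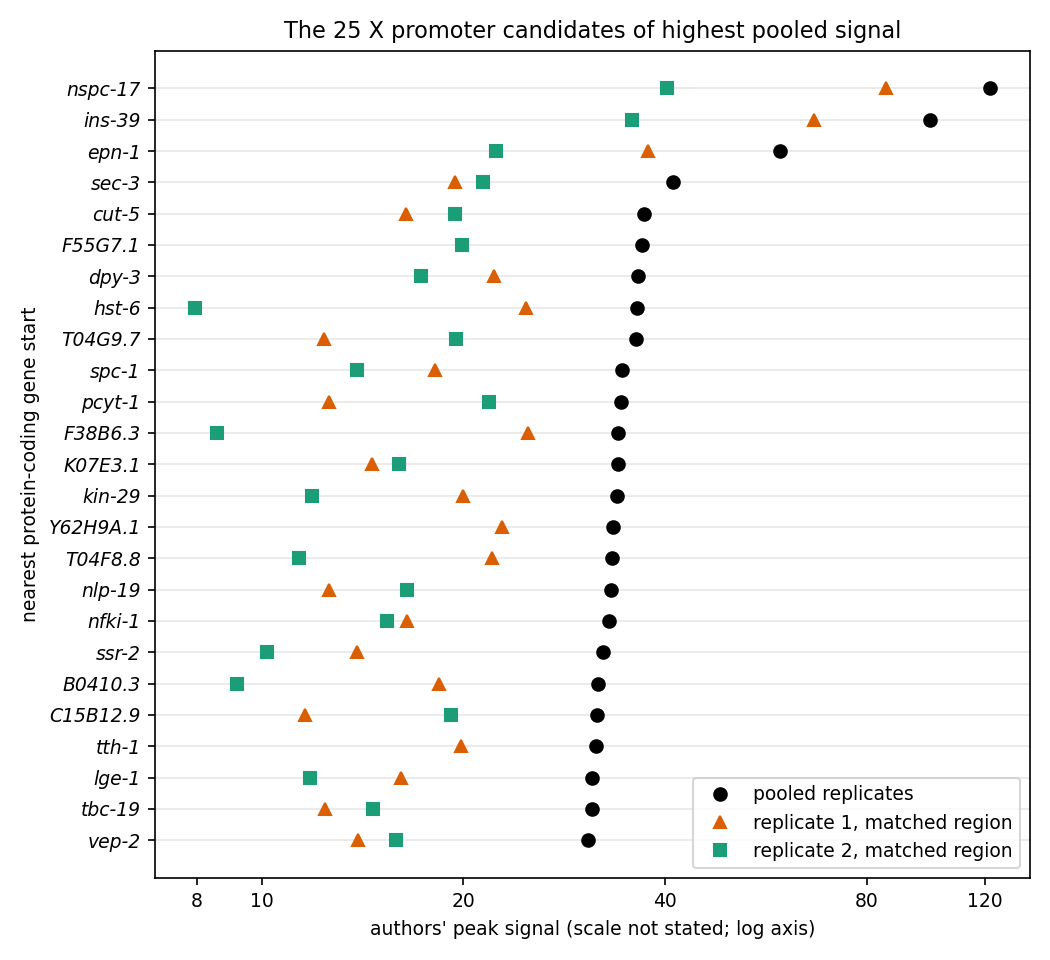
Signal of the 25 X promoter candidates of highest pooled signal, one row per candidate named by its nearest protein-coding start, with the authors' peak signal on a log axis for the pool (circles), replicate 1 (triangles) and replicate 2 (squares). A missing symbol means no region with a summit within 100 bp in that replicate. nspc-17, ins-39 and epn-1 stand at 122.3, 99.3 and 59.3 in the pool, and the other 22 lie between 30.7 and 41.1.

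Below these 3 the pooled signals lay close together, and most regions were ranked high by at most 1 replicate. The next 22 candidates had pooled signals from 30.7 to 41.1. Of the 25 highest, 22 had a matching region, meaning a summit within 100 bp, in both replicates and the other 3 in 1 replicate. In the top 1000 of both replicates were 5 of the 25, in the top 1000 of exactly 1 replicate 13, and of neither 7. Among the 22 matched in both, 13 had the higher signal in replicate 1 and 9 in replicate 2. The summit was upstream of the start in 21 and downstream in 4, and it was intergenic in 16, in an untranslated region in 5, in an intron in 3 and in a coding exon in 1.

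The candidate of sec-3, which encodes a subunit of the exocyst that tethers secretory vesicles, had a signal of 41.1 in the pool (chrX:3100533-3100882, 856 bp upstream). It had 19.4 in replicate 1 and 21.4 in replicate 2, with ranks of 409 and 132. Its summit lay inside an intron of the neighbouring gene ztf-13. It was the fourth and last candidate in the top 500 of both replicates, which 4 of 1077 reached (0.371%, 95% interval 0.101 to 0.948%). The share was 0.335% of the other X candidates, 0.355% of autosomal promoter candidates and 0.167% of all pooled candidates, all within that interval.

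The candidate of cut-5, a cuticlin gene, had a signal of 37.2 (chrX:10338649-10338998, 624 bp upstream), with 16.4 in replicate 1 and 19.5 in replicate 2. The cuticle collagen gene dpy-3 had 36.4 in the pool (chrX:2145733-2146082, 261 bp upstream), 22.2 in replicate 1 and 17.3 in replicate 2. Its ranks of 140 and 787 put it in the top 1000 of both, whereas cut-5 ranked 1367 and 294. The remaining candidate in the top 1000 of both was that of tmem-184, a transmembrane protein gene named after its values were seen. It had 29.1 in the pool (chrX:14707056-14707405, 370 bp upstream), 17.3 in replicate 1 and 16.8 in replicate 2. In all, 6 of 1077 were in the top 1000 of both (0.557%, against 0.24% of all pooled candidates), and 3 in the top 100 of both (0.279%, against 0.276% of the other X candidates and 0.103% of all pooled candidates). In the top 5000 of both were 19 (1.76%), against 1.54% of the other X candidates, 1.89% of autosomal promoter candidates and 1.25% of all pooled candidates. For the top 1000 the share was 0.394% of the other X candidates and 0.453% of autosomal promoter candidates. These and the 0.24% of all pooled candidates lay within the 95% interval of the X promoter share, 0.205 to 1.21%.

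The remaining candidates among the 25 are given by whether the replicate signals differed by more than 1.5 times, a limit set after the values were seen. Of those higher in replicate 1 by more than that, the candidate of hst-6, which encodes a heparan sulfate 6-O-sulfotransferase, had 24.8 in replicate 1 and 7.95 in replicate 2, near the lowest value of that list (7.41), for a pooled signal of 36.4. Its region was chrX:5275278-5275627, 108 bp upstream, and the summit also lay in an untranslated region of the neighbouring gene rga-8. The candidate of F38B6.3 had 24.998 in replicate 1 and 8.56 in replicate 2, with the summit 51 bp downstream of the start. The regions were among the top 100 of replicate 1, at ranks 70 and 62, and beyond rank 20000 of replicate 2, at 25947 and 21637. kin-29, a gene of the salt-inducible kinase family, had 20.002 in replicate 1 and 11.9 in replicate 2 (pooled 33.9, 368 bp upstream). The candidate of T04F8.8 had 22.0 in replicate 1 and 11.4 in replicate 2, and that of B0410.3 had 18.4 in replicate 1 and 9.19 in replicate 2.

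Others were higher in replicate 2 by more than 1.5 times. The candidate of pcyt-1, which encodes the rate-limiting enzyme of phosphatidylcholine synthesis through CDP-choline, had 12.6 in replicate 1 and 21.8 in replicate 2 (pooled 34.4, 385 bp upstream). Its summit lay in an intron of unc-98, a gene of muscle attachment structures. The candidates of T04G9.7 and C15B12.9 had 12.4 and 11.6 in replicate 1 and 19.5 and 19.2 in replicate 2.

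The 3 candidates matched in 1 replicate have no ratio. tth-1, which encodes thymosin beta, an actin-monomer-binding protein, had 19.9 in replicate 1 and no match in replicate 2 (pooled 31.5, 212 bp upstream). The candidate of Y62H9A.1 had 22.8 in replicate 1 and no match in replicate 2 (pooled 33.4, 941 bp upstream). That of F55G7.1 had no match in replicate 1 and 19.9 in replicate 2 (pooled 36.9, 50 bp upstream).

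The rest differed by less than 1.5 times between the replicates. spc-1, the alpha-spectrin gene, had 18.1 in replicate 1 and 13.9 in replicate 2 (pooled 34.5, 203 bp upstream). nfki-1, a homologue of inhibitors of NF-kappaB, had 16.5 in replicate 1 and 15.4 in replicate 2 (pooled 33.0, 982 bp upstream). nlp-19, a neuropeptide-like gene, had 12.6 in replicate 1 and 16.5 in replicate 2 (pooled 33.3), with the summit in its own coding exon, 48 bp downstream of the start. K07E3.1 had 14.6 and 16.0, vep-2 had 13.9 and 15.9, and tbc-19, a gene of the TBC family of Rab GTPase regulators, had 12.4 and 14.6 in replicates 1 and 2. lge-1 and ssr-2 had 16.1 and 13.9 in replicate 1 and 11.8 and 10.2 in replicate 2.

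Agreement between the replicates was next read over all members. A region in replicate 1 was within 100 bp of 607 of the 1077 (56.4%), one in replicate 2 of 555 (51.5%) and one in both of 250 (23.2%, 95% interval 20.7 to 25.9%). Another 662 were matched in 1 replicate and 165 in neither. In all pooled candidates the share matched in both was 20.5%, in the other X candidates 21.4% and in autosomal protein-coding promoter candidates 20.4%. The X promoter share was slightly higher. Its interval contained the share of the other X candidates but not the other 2 shares, and the difference was not tested. The pool contains the reads of both replicates, so a match with one of them is not independent of the pooled rank. Regions were 350 bp wide in the pool and replicate 1 and 364 bp in replicate 2. The lists of replicates 1 and 2 end at signals of 7.61 and 7.41, so a missing match does not mean an absence of signal.

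The share matched in both depended on the pooled rank. Of the X promoter candidates in the pooled top 500, 87.5% were matched in both (21 of 24), against 79.2% of the other X candidates and 83.3% of the autosomal promoter candidates of those ranks. Between ranks 1001 and 5000 the share was 52.5% at X promoters, 51.3% at other X candidates and 51.6% at autosomal promoters. Between ranks 20001 and 30000 it was 2.94% at X promoters, 3.01% at other X candidates and 2.74% at autosomal promoters. In each of the 6 rank ranges the 95% interval of the X promoter share overlapped those of the other classes.

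**Figure D2:**
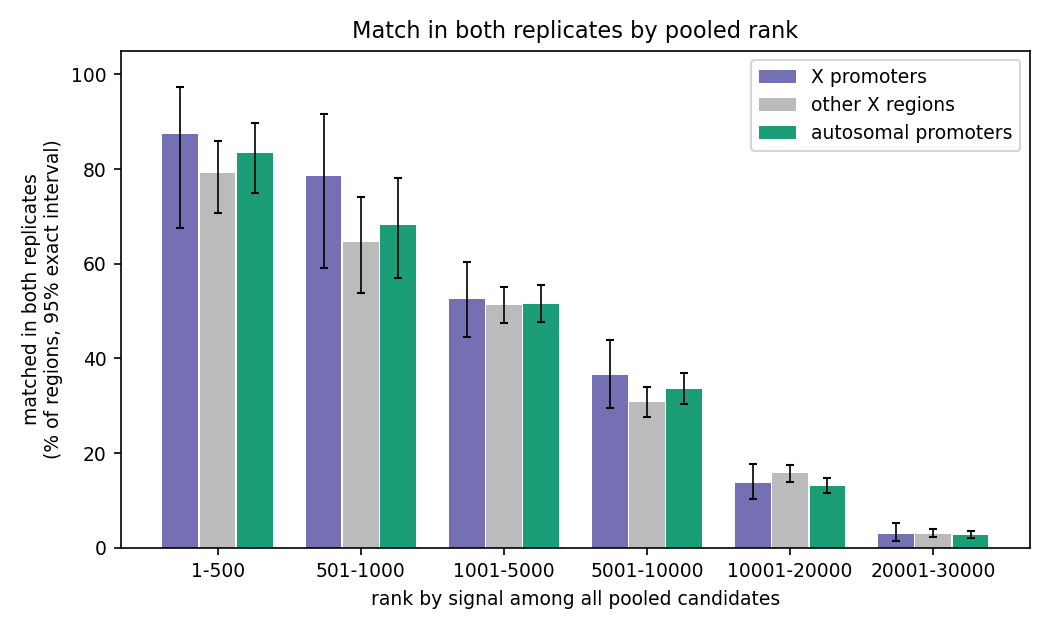
Percent of candidates with a summit within 100 bp in both replicates (y axis, bars, with 95% exact intervals), by range of rank among all 30000 pooled candidates (x axis), for X promoters, other X regions and autosomal promoters. The X promoter share is 87.5% in the top 500 and 2.94% in the last range, and its interval overlaps those of the other classes in every range.

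Over the 250 members matched in both, the signals of replicate 1 and replicate 2 had a Spearman's rho of 0.0081. The value was 0.162 over 1086 other X regions, 0.138 over 1038 autosomal promoter regions and 0.0792 over all 6141 pooled candidates matched in both. All were low, and no difference between them was tested. These are descriptions across regions, which share the same libraries. Of the 250, 134 had the higher signal in replicate 1. The pooled signal had a median of 1.02 times the sum of both replicate signals (quartiles 0.957 and 1.09). For nspc-17, ins-39 and epn-1 this ratio was 0.972, 0.969 and 0.986. The members had first to be high enough in pooled signal to enter the list. Because the pooled signal is close to the sum of the replicate signals, such a choice tends to lower rho by itself. The rho values therefore do not measure how well the replicates agree.

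**Figure D3:**
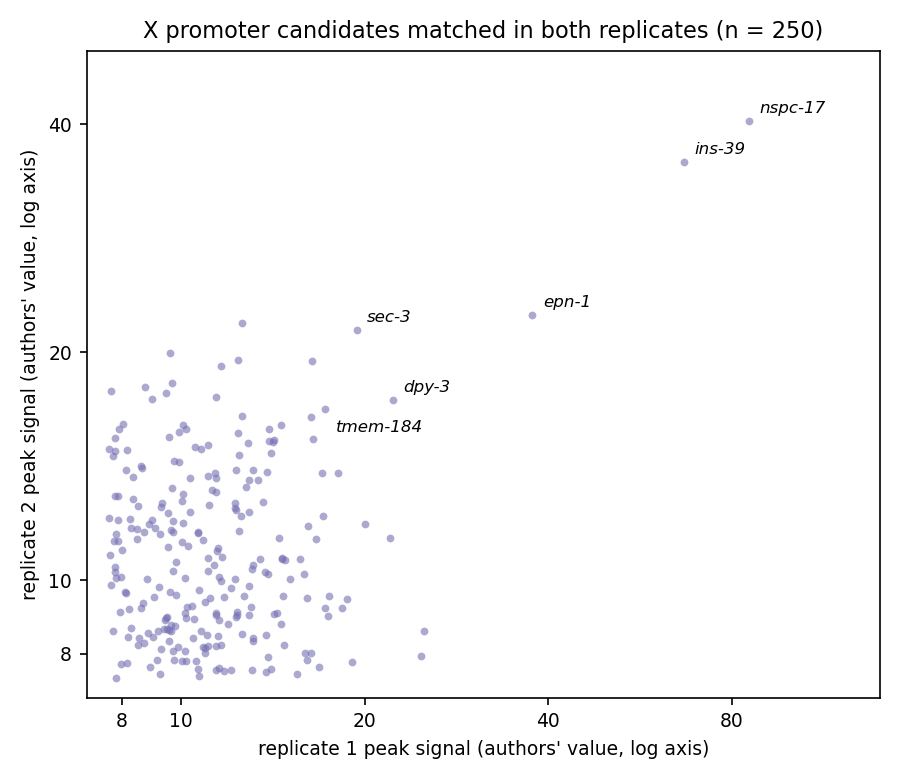
Replicate 1 signal (x axis) against replicate 2 signal (y axis), both the authors' values on log axes, for the 250 X promoter candidates matched in both replicates; each point is a region, and the 6 in the top 1000 of both are named. nspc-17, ins-39 and epn-1 stand apart at the upper right, and the remaining points form a cloud with no visible trend (Spearman's rho over all 250 was 0.0081). The choice of regions by pooled signal tends to lower this rho, so it does not measure agreement.

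The level of the signal at X promoters was set beside that of other regions. The pooled signal had a median of 17.995 (95% interval of the median 17.6 to 18.3) at the X promoter candidates, 17.7 at the other X candidates, 17.6 at the autosomal promoter candidates and 17.5 over the whole list. The quartiles of the X promoter candidates were 15.6 and 21.2, and 30 of the 1077 had a signal above 30. X promoters held 3 of the 48 highest pooled regions (6.25%), 24 of the highest 500 (4.8%), 52 of the highest 1000 (5.2%) and 212 of the highest 5000 (4.24%), against 3.59% of the full list. The other classes had like shares at the top. The pooled top 500 held 2.23% of the X promoter candidates, 2.37% of the other X candidates and 2.13% of the autosomal promoter candidates, and the top 1000 held 4.83, 4.201 and 3.74% of these classes. No difference was tested.

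The windows that define promoters take up different shares of the chromosomes. They cover 16.2% of the X sequence and hold 17.5% of the X candidates, whereas on the autosomes they cover 20.6% of the sequence and hold 21.3% of the candidates. Candidates of any kind were denser on X, at 347 per Mb, than on the autosomes, at 289 per Mb. By gene, 1002 of the 2731 protein-coding genes on X had at least 1 candidate in the window (36.7%), against 5205 of 17254 on the autosomes (30.2%). Of the 1002 genes, 882 had 1 candidate, 116 had 2 and 4 had 3.

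Summits were spread over the whole window. Of the 1077, 486 lay within 500 bp upstream of the nearest start (45.1%), 473 more than 500 bp upstream (43.9%) and 118 downstream of the start (11.0%). At autosomal promoters these shares were 48.5, 40.1 and 11.4%. The median distance was 432 bp upstream on X (95% interval 386 to 464) and 393 bp on the autosomes (380 to 407). The share per 100 bp ran from 8.17 to 11.1% on X, highest in the bin downstream of the start, and the 3 IDR peaks sat 314, 650 and 746 bp upstream.

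**Figure D4:**
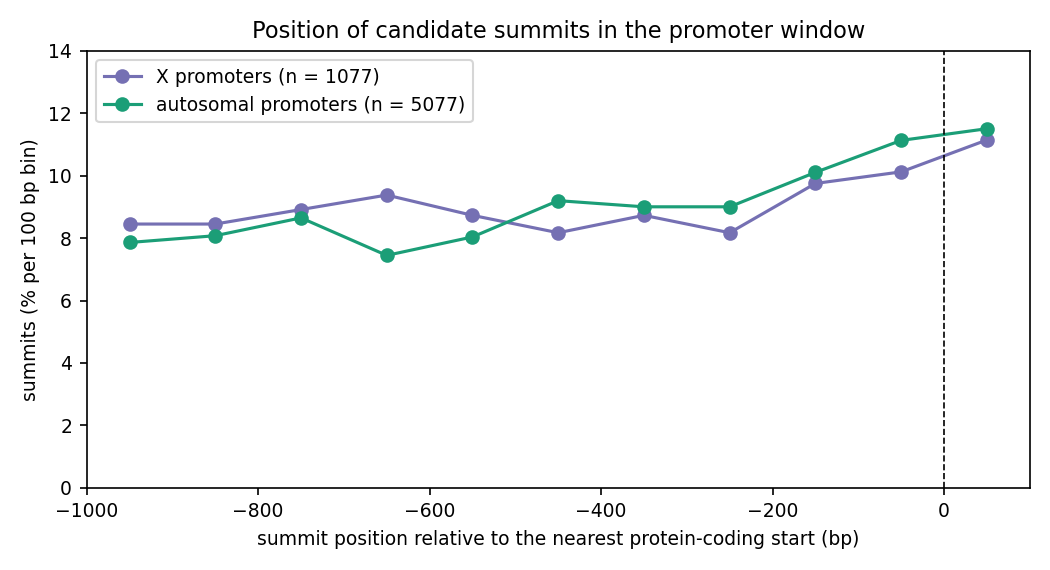
Position of the summit relative to the nearest protein-coding start (x axis, bp, negative is upstream) as percent of summits per 100 bp bin (y axis), for 1077 X promoter and 5077 autosomal promoter candidates. The X values lie between 8.17 and 11.1% per bin, with no sharp peak next to the start.

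Divergent promoters, in which a pair of genes on opposite strands share the upstream sequence, were few. The summit lay in the windows of genes on both strands in 37 of 1077 X candidates (3.44%) and 521 of 5077 autosomal ones (10.3%). The window sequence itself is shared by both strands to 3.60% on X and 9.92% on the autosomes, so both shares were close to what the windows offer. None of the 3 IDR peaks was in a shared window. Among the 25 highest the region of nlp-19 was also in the window of K09C8.2 on the same strand, and that of C15B12.9 in the window of C15B12.3 on the other strand.

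Of the 1077 summits, 741 were intergenic (68.8%), 136 in coding exons (12.6%), 90 in untranslated regions (8.36%), 82 in introns (7.61%) and 28 in exons of non-coding genes (2.60%). A gene of the ncRNA class lay within 500 bp of 153 summits and a tRNA gene of 17. A snoRNA gene was near 4, a lincRNA gene near 1 and a microRNA gene near 1. These shares and counts were taken over the members alone, so whether they differ from other candidates is not known. In 1024 of the 1077 regions no 36-base word occurred elsewhere in the genome, and in 1 region more than 50% of the words did.

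At the edges of the window, the member nearest to the upstream edge was at F09B12.7 (998 bp upstream, signal 29.98), and the region just outside it at col-167 (1001 bp upstream, signal 15.5). The member nearest to the downstream edge was at col-165 (100 bp downstream, signal 15.5), and the region just outside it at nhr-281 (102 bp, signal 27.99). High and low signals thus stood on both sides of the limits.

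Base composition and short sequences were compared within 100 bp of the summits. Median GC content was 35.3% (95% interval 34.8 to 35.8%) at the X promoter candidates, 35.8% at the other X candidates, 35.3% at autosomal promoters and 36.3% over the list. It was 43.3, 40.3 and 43.8% at nspc-17, ins-39 and epn-1. Each motif was counted once per window, on either strand.

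AGGTCA was in 54 of the 1077 windows (5.01%, 95% interval 3.79 to 6.49%), against 5.01% of all pooled candidates and 6.74% of windows of equal length centred 400 bp upstream of all 2731 X starts. It was in none of the 25 highest, where the interval reaches 13.7%. AGTTCA was in 12.8% of the X promoter windows, against 14.3% of the list and 14.6% of the X starts. Members with AGGTCA had a median pooled signal of 17.4, and those without it 18.01. For AGTTCA the medians were 18.6 with it and 17.9 without it.

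Each piece of MEX was in a small share of these windows, though CGCGCA and CCCTGC were in a larger share than over the list. Over the 26 X peaks of the IDR list, of which 3 are at these promoters, CGCGCA was within 100 bp of 13 summits, CCCTGC of 15 and GCGCAGGG of 10. CGCGCA was in 44 windows (4.09%, 95% interval 2.98 to 5.45%), against 2.95% of the list and 3.26% of the X starts. It was in 2.64% of the other X candidates and 3.72% of autosomal promoters. CCCTGC was in 37 windows (3.44%, 95% interval 2.43 to 4.70%), against 2.32% of the list and 2.64% of the X starts. It was in 2.84% of the other X candidates and 1.99% of autosomal promoters. The 8-base GCGCAGGG was in 2 of 1077, those of nspc-17 and ins-39 printed above. It was in 17 of 5070 other X candidates, 3 of 5077 autosomal promoters, 34 of all 30000 pooled candidates and 2 of the 2731 X starts. CGCGNAGGG, searched after the nspc-17 sequence was seen, was in the same 2 members, in 15 of 5070 other X candidates, in 0 of 5077 autosomal promoters (interval up to 0.0726%), in 35 of all 30000 pooled candidates and in 2 of the 2731 X starts. Autosomal regions outside promoters thus held it too. Beyond nspc-17 and ins-39, CGCGCA and CCCTGC occurred together in 3 members. One lay 194 bp upstream of sec-3, a second region of that gene at chrX:3099871-3100220, with a signal of 28.3. The others were at F40E10.5 (21.3) and R160.2 (18.6). These pieces, like GAGAGA and ACACAC, had been picked from earlier results of these data, and no test was made of them.

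The repeats ACACAC and GAGAGA, though not runs of 8 T, were more frequent at the top than over all members. ACACAC was in 9 of the 25 highest windows (36%) and in 114 of 1077 overall (10.6%), against 7.37% of the list and 9.26% of the X starts. It was in 5 of the 6 windows printed above, all but that of dpy-3. GAGAGA was in 9 of the 25 (36%) and in 12.7% of the 1077, against 11.5% of the list and 12.6% of the X starts. Of the 6 windows printed above, GAGAGA was in 1, that of epn-1. CGCGCA, in 4 of the 25 (16%), and CCCTGC, in 3 (12%), were also more frequent there than over all members (4.09 and 3.44%). The GATA-type sequence TGATAA was in 21.0% of the 1077 and 17.9% of the list, and runs of 8 T in 22.3 and 17.97%. At the X starts those last shares were 21.1 and 25.3%. Among the 25 highest windows TGATAA was in 6 (24%) and runs of 8 T in 4 (16%).

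The genes at X promoters were then read by family, from 18 lists of X genes defined by gene name, beside the 36.7% of all X protein-coding genes with a candidate. The 95% interval contained 36.7% for each of the 18 lists. The values by family describe individual promoters.

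Among ligands, 1 of 2 insulin-like genes on X had a candidate, that of ins-39 described above. Neuropeptide genes had candidates at 13 of 32, with 3 of the 13 regions matched in both replicates and a median pooled signal of 20.6. After nlp-19 the highest were nlp-2 (27.4, 987 bp upstream) and nlp-45 (26.97, 361 bp upstream). The region of nlp-2 had 17.7 in replicate 1 and no match in replicate 2, and that of nlp-45 no match in replicate 1 and 20.7 in replicate 2. The hedgehog-related and patched-related genes had 3 of 13, led by wrt-9, a warthog-family gene (27.4, 875 bp upstream, 13.1 in replicate 1 and 13.998 in replicate 2), with grd-4 at 20.5 and hog-1 at 14.2.

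Median signals of the receptor and channel families ran from 16.8 to 18.9, near the 17.5 of the whole list. The regions named here are the highest of each family. Nuclear hormone receptor genes, the family of the profiled protein, had candidates at 13 of 26, with 15 regions of which 3 were matched in both replicates, and a median signal of 16.8. The highest was nhr-26 (25.8, 661 bp upstream, 11.2 in replicate 1 and 13.2 in replicate 2), followed by nhr-91 (24.1) and nhr-3 (22.1). Ligand-gated ion channels had 11 of 28, led by lgc-14 (27.6), lgc-17 (21.5) and lgc-18 (19.8), of which none was matched in both. Potassium channels had 7 of 19. Of these kqt-2, a KCNQ-type channel gene, had 26.99 in the pool, 8.97 in replicate 1 and 17.4 in replicate 2. kvs-1 had 20.7 and irk-2, an inward rectifier gene, 20.6. Chemoreceptors had 9 of 33, with srd-46 (25.98), str-79 (24.3) and sra-39 (22.5) highest.

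Transcription regulators and developmental genes included 6 of 25 homeobox genes. The highest, ceh-30, a Bar-class gene that protects a class of male-specific neurons from cell death, had 29.5 in the pool (359 bp upstream), 14.1 in replicate 1 and 14.7 in replicate 2. ceh-89 had 20.9 and ceh-28 19.3. Of 6 lin genes, lin-15A (17.3) and lin-15B (14.1), which act in vulval cell fate, had a candidate.

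Genes of sex determination and dosage compensation had candidates at 4 of 6, none matched in both replicates. fox-1, an RNA-binding protein gene and an X-linked signal of X number, had 20.2 (370 bp upstream), with 15.4 in replicate 2 alone, at rank 8474 of the pool and 1802 of replicate 2. xol-1, the switch gene that those signals repress in hermaphrodites, had 16.4 (979 bp upstream), with 10.9 in replicate 2 alone. ceh-39 and sex-1, further X-linked signals, had 15.8 and 14.2. The value of sex-1, at rank 28059, lies near the bottom of the pooled list, whose lowest is 13.8. The region of ceh-39 was at rank 21271 and had no match in either replicate.

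Structural and metabolic families were read in the same way. Cuticle collagens had candidates at 14 of 30, with 17 regions of which 6 were matched in both and a median of 17.1. After dpy-3 came col-164 (23.3) and col-175 (21.4). Detoxification enzymes had 5 of 14, led by the glutathione S-transferase genes gst-11 (24.4, with 12.9 in replicate 1 and 9.84 in replicate 2) and gst-42 (21.1), and the glucuronosyltransferase gene ugt-46 (20.02). Of the 5 vitellogenin genes, which encode yolk proteins, vit-2 alone had candidates, with 2 regions of which 1 was matched in both replicates. Its highest region (23.2, 876 bp upstream) had no match in replicate 1 and 10.1 in replicate 2. Of 2 ribosomal protein genes, rpl-25.1 had a candidate (23.8). Transthyretin-related genes had 4 of 12, with ttr-42 (20.8), ttr-38 (19.2) and ttr-48 (18.5). F-box genes had 3 of 17, which were fbxb-58 (24.2), fbxa-81 (17.4) and fbxa-96 (14.8), and C-type lectins 1 of 3, clec-266 (18.2).

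The nspc family showed how far nspc-17 stood from its relatives. Of 18 nspc genes on X, 6 had a candidate, with a median signal of 17.6 over the regions. After nspc-17 at 122.3, the next were nspc-4 (23.9, with 15.7 in replicate 1 and no match in replicate 2) and nspc-16 (18.8, with 17.5 in replicate 1 and no match in replicate 2). The neighbouring genes nspc-18 and nspc-19 shared 1 region of signal 14.8.

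**Figure D5:**
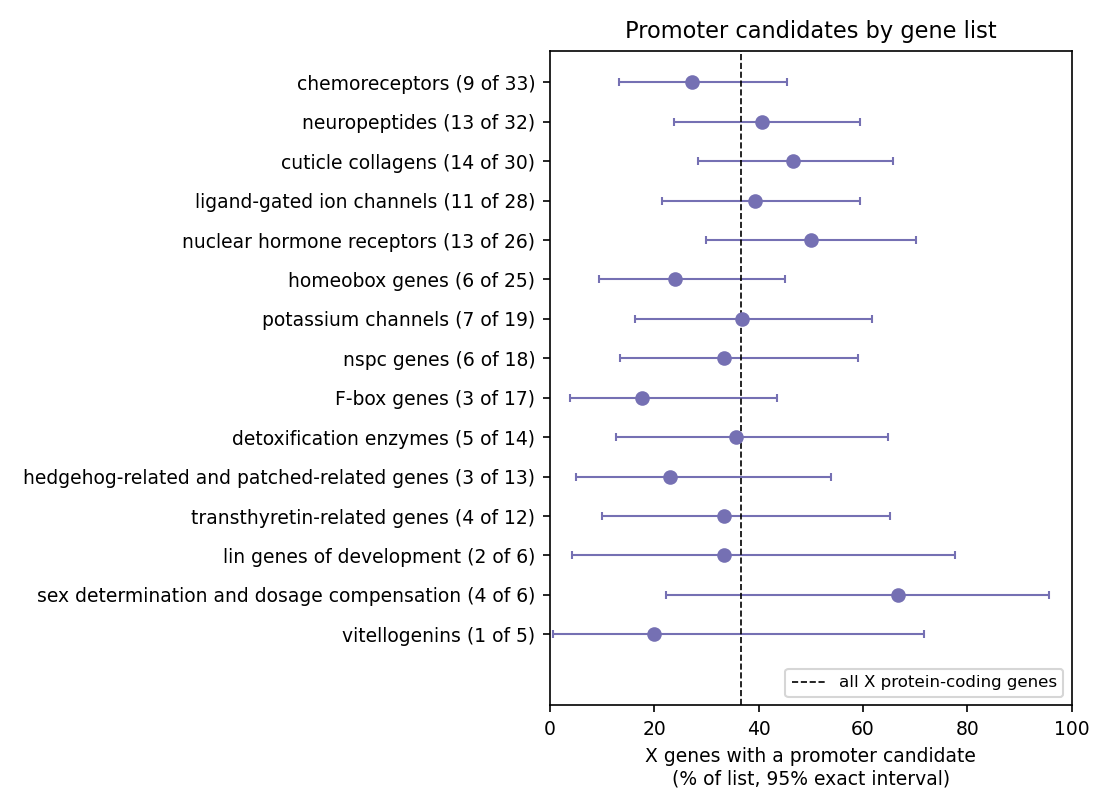
Percent of the X genes in each list with a promoter candidate (x axis; points with 95% exact intervals), for lists of 5 or more X genes, with the number of genes beside each name; the dashed line is the 36.7% of all X protein-coding genes. Every interval shown crosses the line.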

How the data were processed

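The data are ChIP-seq region lists for 2 replicates of a single group, with fragments of 150 to 350 bp per the labels. The authors deposited, per the file lists in the series, a list of peaks and background for each replicate and for the pool of both, each against a control, and an IDR list of 48 ce11 peaks. No peak caller, aligner or threshold is named in the labels or file lists. The deposited signal is the authors' peak value, used only to rank and describe regions. The deposited q column was treated as a score and not used, since it falls below 0 in 10776 pooled regions. The ce10 lists were not used. Read depth is unknown.

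Summits were assigned to protein-coding gene starts of Ensembl release 115 (WBcel235), whose chromosome lengths contain all ce11 regions. Summits within 100 bp were matched, the nearest taken. Sequence came from the WBcel235 assembly of RefSeq. Named genes are those nearest the 25 highest candidates, all on the IDR list or in the top 100 of both replicates, up to 3 per gene list, and those at the window edges. The members, lists and motifs were chosen with earlier results of these data known. Shares have Clopper-Pearson intervals and medians exact order-statistic intervals, at 95%. The code was checked on simulated data. The work was done in Python 3.11.15 with scipy 1.17.1, numpy 2.4.6 and pandas 2.3.3. Other windows, start definitions, match rules, rank limits and single replicates were tried.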

Additional observations from a re-analysis of the deposited data

How the results depend on the processing

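Of 53 alternative values, 37 stayed within 1.5 times the reported count or within the reported 95% interval, and 16 did not. With a window of 500 bp upstream there were 604 candidates, 1 on the IDR list, 1 in the top 500 of both replicates and 1.82% in windows of both strands. With 2000 bp upstream there were 1867 candidates, 5 on the IDR list, 7.98% in windows of both strands and 26.03% within 500 bp. With the top 48 of each replicate, 2 were in both. The share matched in both was 16.2% within 50 bp, 31.8% within 200 bp, 36.7% by any overlap and 43.2% among the 500 candidates of highest signal, whose median signal was 21.5. Each replicate list alone, without the other, gave 1029 to 1054 candidates, 3 to 4 on the IDR list, a median signal of 9.89 to 10.3 on that list's own scale, 2.66 to 3.69% in windows of both strands, 45.8 to 47.1% within 500 bp and a median GC of 34.8 to 35.8%. The IDR count of 3 thus rests on the window chosen. No paired analysis was possible because there is a single group. No read depth is known, so counting error of the signal cannot be given.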

Other observations

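Some X genes, named after their values were seen, had more than 1 candidate at the promoter. With 3 each were cyn-8, a cyclophilin gene (signals 23.4, 18.8 and 14.3), cebp-1, which encodes a bZIP transcription factor of the C/EBP family (23.1, 22.2 and 15.7), M60.4 (20.4, 16.9 and 15.0) and T01H10.11 (16.7, 15.3 and 14.5). Regions of the same gene can overlap, and 32 pairs of neighbouring summits lay within 350 bp of each other, so they are not separate observations. Candidates occurred along the whole of X. Per Mb, the share of protein-coding genes with a candidate ran from 21.6%, in the last partial Mb at the right end (19 of 88 genes), to 48.9%, from 15 to 16 Mb (67 of 137 genes).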
